A study of Mus musculus with 4 samples.

Results

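The 9 genes described here encode components and regulators of complement: the 3 chains of C1q (C1qa, C1qb and C1qc), the proteases C1r and C1s (C1ra and C1s1), the central components C3 and C4 (C3 and C4b), factor D (Cfd) and the C1 inhibitor (Serping1). They were taken by symbol, and all 9 were found once each among the 32285 genes listed. The libraries came from the middle phalanx (P2) of the digit of wild-type FVB/NJ mice aged 8 weeks, with males and females pooled according to the labels. P2 amputation heals by fibrosis and is not followed by regrowth. One library was made from unamputated P2 tissue, which is the control, and 1 each from fibrosing tissue collected 12, 17 and 28 days post-amputation (dpa). Dissected tissue was dissociated enzymatically (collagenase I, trypsin), and after lysis of red cells the live, propidium iodide-excluding cells were sorted for droplet-based 3' sequencing. No allele, transgene or drug treatment is named for any group. The comparison asks which cell classes transcribe each gene and how the levels differ between unamputated tissue and the stages of fibrosis.

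Complement is a cascade of plasma and tissue proteins that marks microbes and damaged cells for removal. C1q binds a target and activates the proteases C1r and C1s, which cleave C4 and C2 to form an enzyme that cleaves C3, while the alternative route cleaves C3 with factor B, factor D and properdin. The liver supplies most circulating components, but macrophages are a main source of C1q and fibroblasts of C1r, C1s, C3 and C4 within tissues.

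Each group is 1 library, so no difference below has a replicate check and none was tested. Levels are CPM, the UMIs of a gene per 1000000 UMIs of a class or cluster of cells in 1 library. Intervals are exact 95% Poisson intervals, or exact conditional intervals for a fold, and cover counting error only. Log2 ratios compare a dpa library with the unamputated one on log2(CPM + 1), which understates the difference of low genes. Across libraries 6489 to 10171 of 8813 to 15253 amputated barcodes and 10434 of 16045 unamputated barcodes were kept, 35029 cells in all, with median depths of 11636 UMIs per cell in the unamputated library and 9527, 8504 and 6649 at 12, 17 and 28 dpa. The 12 dpa library stood apart: it held 458.5 CPM of Xist and 0.229 CPM of 4 Y-linked genes, against at most 0.153 and at least 244.4 CPM in the other libraries. The labels give pooled sexes for every library, the unamputated one included, yet each held almost only Xist or almost only Y-linked transcripts. Sex and day cannot be told apart for the 12 dpa library. Between 92 and 182 barcodes of each library also occurred in another. Cells formed 28 clusters, of which 24 were named from marker genes, without using any complement gene to cluster or to name. The macrophage-like class joined cluster 1 (led by Ms4a7 and Apoe; 9 of 10 macrophage markers detected) and cluster 25 (led by F13a1, Pf4, Lyve1 and Folr2; 8 of 10). The fibroblast-like class joined cluster 10 (led by Lsamp, Hpse2, Gdf10 and Pi16), cluster 11 (led by Ccn3, Clec3b and Mfap5) and cluster 24 (led by Fgl2, Itih5 and Hcn4).

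On the mouse genome build mm10 the C1q genes lie side by side on the minus strand at chr4:136895917-136898803 (C1qa), chr4:136889804-136893065 (C1qc) and chr4:136880129-136886187 (C1qb), with gaps of 2851 and 3616 bases. C1ra (chr6:124512405-124523443, plus strand) and C1s1 (chr6:124530345-124542359, minus strand) are neighbours 6901 bases apart. C4b (chr17:34728380-34743882) and C3 (chr17:57203970-57228136) lie on the minus strand, Serping1 at chr2:84765387-84775444 on the minus strand and Cfd at chr10:79890853-79892655 on the plus strand. RefSeq promoter windows, from 250 bases before to 50 after the start site on GRCm38.p6, matched 6 of the 9 genes. Those of C1qb (chr4:136886151-136886450, minus strand) and C1qc (chr4:136892865-136893164, minus strand) are printed because the C1q chains had the same cell pattern, and that of C3 (chr17:57228087-57228386, minus strand) because C3 at 28 dpa differed in opposite directions in macrophage-like cells and in fibroblast-like cluster 10. Capitals mark the PU.1 core GAGGAA, read as TTCCTC on the other strand, and the C/EBP motif TTGCNNAA.
C1qb: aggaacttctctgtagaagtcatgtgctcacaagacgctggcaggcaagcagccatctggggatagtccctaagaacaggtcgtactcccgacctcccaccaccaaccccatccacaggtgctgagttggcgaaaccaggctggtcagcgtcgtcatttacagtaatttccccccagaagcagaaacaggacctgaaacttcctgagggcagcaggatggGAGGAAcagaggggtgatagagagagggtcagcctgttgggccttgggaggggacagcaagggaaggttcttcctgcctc
C1qc: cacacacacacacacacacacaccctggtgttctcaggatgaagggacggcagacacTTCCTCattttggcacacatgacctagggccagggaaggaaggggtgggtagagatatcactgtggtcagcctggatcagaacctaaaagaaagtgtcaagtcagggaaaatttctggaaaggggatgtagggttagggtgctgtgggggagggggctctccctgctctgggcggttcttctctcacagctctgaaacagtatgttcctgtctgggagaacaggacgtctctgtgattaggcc
C3: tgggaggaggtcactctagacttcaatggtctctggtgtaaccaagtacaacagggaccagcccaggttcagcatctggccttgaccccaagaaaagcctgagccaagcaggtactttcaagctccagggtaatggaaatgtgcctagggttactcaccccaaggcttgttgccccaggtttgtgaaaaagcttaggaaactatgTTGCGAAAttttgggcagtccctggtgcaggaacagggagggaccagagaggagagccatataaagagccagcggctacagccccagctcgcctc
The PU.1 core begins 30 bases before the C1qb start site and 193 bases before that of C1qc, and 28.3% of all 32851 promoter windows hold it. The C/EBP motif begins 45 bases before the C3 start site, against 10.8% of windows, and 1 of the 2 C1s1 windows holds it on the reverse strand 242 bases before the start. The C1ra window holds a PU.1 core, a C/EBP and a STAT motif, all after the start site. AP-1 (TGANTCA, in 7.81% of windows), IRF (named only, 3.44%) and STAT (TTCNNNGAA, 8.3%) motifs were searched on both strands as well and have no match in the 3 windows printed. Such matches are letters in a window and were not tested as binding sites.

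The members differed in the cell classes that held their UMIs. C1q was a transcript of macrophage-like cells: they held 78.3%, 75.1%, 85.0% and 94.4% of the C1q UMIs of kept cells in the unamputated, 12, 17 and 28 dpa libraries. C1s1, C1ra and Serping1 were transcripts of fibroblast-like cells and of other connective tissue and mural cells. C4b was found in fibroblast-like and Schwann-like cells, and C3 in fibroblast-like cells and in several myeloid clusters. Over 44 sums (11 classes with at least 50 cells in each of 4 libraries) log2 levels of C1s1 and Serping1 had a Pearson r of 0.92, those of C1ra and C1s1 of 0.90 and those of C1ra and Serping1 of 0.90, whereas C1q and C1s1 had -0.50 and C1q and C3 0.51. These sums share libraries, and classes of 1 library share its free RNA, so the values are a description.

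**Figure D1:**
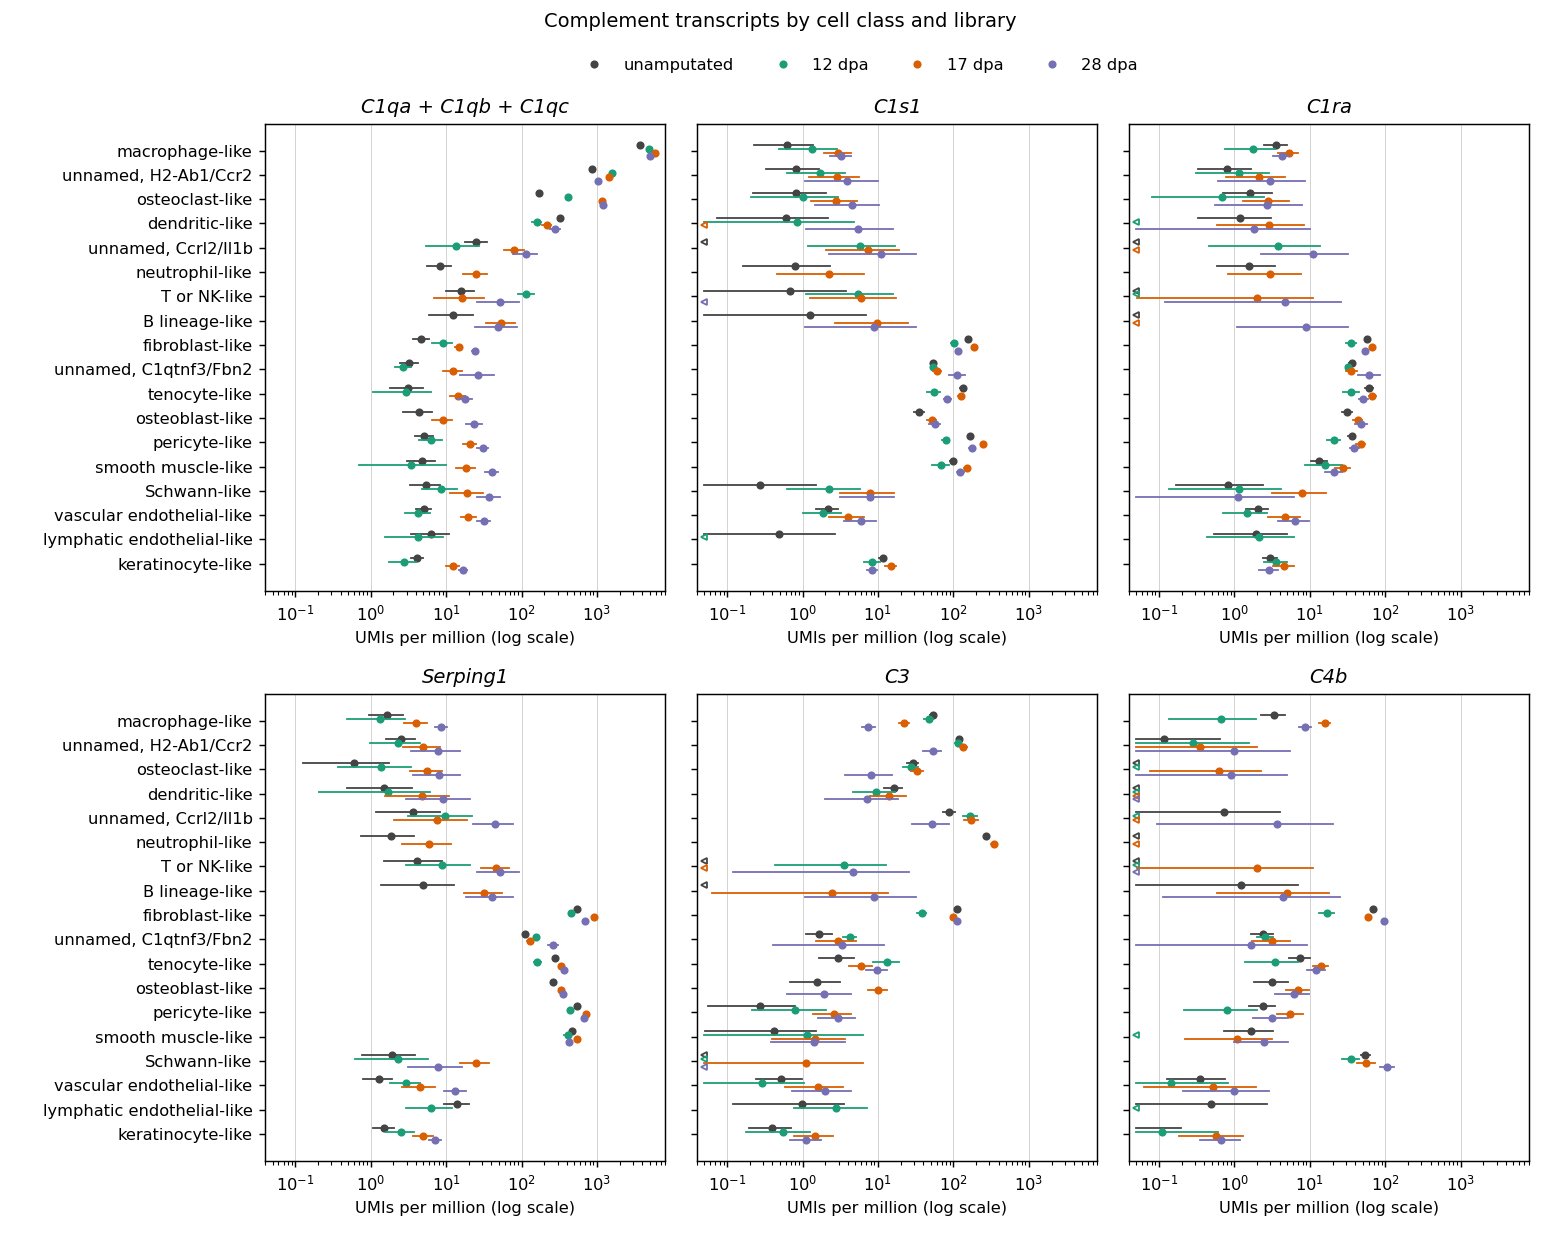
CPM (log axis) of the C1q chains summed and of C1s1, C1ra, Serping1, C3 and C4b in each cell class (vertical axis) with at least 50 cells; points are libraries, lines exact 95% Poisson intervals, and open triangles at the left edge are levels of 0. C1q reached 3763 to 5866 in macrophage-like cells, while Serping1 reached 453.4 to 922.7 in fibroblast-like cells.

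C1q, the recognition part of the first complement component, was more abundant in the amputated libraries, both in the tissue as a whole and within macrophage-like cells, where the difference was the smaller one at 17 and 28 dpa. Over all barcodes the 3 chains together made up 268.2 CPM in the unamputated library, 342 at 12 dpa, 720.3 at 17 dpa and 826.1 at 28 dpa. Fewer cells of a type and less RNA per cell cannot be told apart in these totals. Macrophage-like cells were 7.95%, 7.74%, 11.7% and 17.6% of kept cells in the same order. Within macrophage-like cells the sum was 3763, 4848, 5866 and 4979 CPM. The amputated libraries had 1.29-fold (interval 1.27 to 1.31), 1.56-fold (1.54 to 1.58) and 1.32-fold (1.31 to 1.34) the unamputated level, or 0.37, 0.64 and 0.40 in log2, beside medians of -0.21, 0.02 and -0.04 over the 10188 genes tested in that class. The size of these ratios depended on how cells were filtered and grouped, as given in the closing section on processing.

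The chains were similar but not alike in these cells. C1qa had 1782, 2345, 2806 and 2535 CPM in the unamputated, 12, 17 and 28 dpa libraries. C1qb had 1092, 1489, 1695 and 1309 CPM. C1qc had 888.2, 1014, 1364 and 1135 CPM. All 3 chains were lowest in the unamputated library and highest at 17 dpa, while C1qb was lower at 28 than at 12 dpa and the other chains were higher. C1qa made up 47.4%, 48.4%, 47.8% and 50.9% of the C1q UMIs of macrophage-like cells. All 3 chains were detected together in 76.5%, 74.1%, 84.5% and 84.3% of macrophage-like cells in the same order of libraries, and none was detected in 10.3%, 12.2%, 6.02% and 4.71%. Thinned to 2000 UMIs per cell, 81.5%, 82.9%, 91.1% and 91.3% of macrophage-like cells had a C1q UMI.

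The mix of clusters behind the class differed between libraries, and the C1q ratios differed between the clusters. Cluster 25, whose leading genes include Lyve1 and Folr2, markers of resident perivascular macrophages, held 66 cells in the unamputated library, 22 at 12 dpa, 480 at 17 dpa and 1572 at 28 dpa. Its C1q sum was 5723, 4685, 6570 and 5060 CPM. Against the unamputated library these are log2 ratios of -0.29, 0.20 and -0.18, so only the 17 dpa level was higher. Cluster 1 held 763, 480, 450 and 213 cells, with 3591, 4853, 5016 and 4357 CPM of C1q. In that cluster all 3 amputated libraries were above the unamputated one, by 0.43, 0.48 and 0.28 in log2. In unamputated tissue, cluster 25 was therefore the richer of the pair in C1q, and the class sum took most of its cells from cluster 1 in unamputated tissue and at 12 dpa and from cluster 25 at 28 dpa.

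C1q was also present in other myeloid clusters. The unnamed cluster led by H2-Ab1, Cd74 and Ccr2, genes of antigen presentation and of monocytes, had 864.6, 1591, 1465 and 1031 CPM of C1q. Osteoclast-like cells, the bone-resorbing cells marked by Acp5 and Atp6v0d2, had 171, 411.7, 1177 and 1192 CPM, which is 6.97-fold (6.39 to 7.61) higher at 28 dpa than in unamputated tissue. A C1q UMI was seen in 35%, 40%, 51% and 56% of these cells, so the level is not that of every cell. The 10 macrophage markers summed to 1804, 2166, 2378 and 2133 CPM in the same osteoclast-like cells and to 5390 to 7181 CPM in macrophage-like cells, and their part in the C1q difference was not tested. Dendritic-like cells had 324, 158.9, 215 and 279.7 CPM, with the unamputated library highest. In keratinocyte-like cells, which should lack C1q, the sum was 4.14, 2.73, 12.3 and 16.8 CPM. Fibroblast-like cells had 4.64, 9.05, 14.8 and 24.3 CPM, and after thinning 0.938%, 1.63%, 3.25% and 4.22% of them had a C1q UMI, against 0.885%, 1.15%, 2.54% and 3.97% of keratinocyte-like cells. Median depths were 18329, 12386, 11747 and 8713 UMIs in fibroblast-like and 17392, 13867, 12444 and 9150 in keratinocyte-like cells. C1qa was 47.6% of the C1q UMIs of fibroblast-like cells at 28 dpa and 50.5% in keratinocyte-like cells, near the 50.9% of macrophage-like cells. C1q in fibroblast-like and keratinocyte-like cells is read as background.

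**Figure D2:**
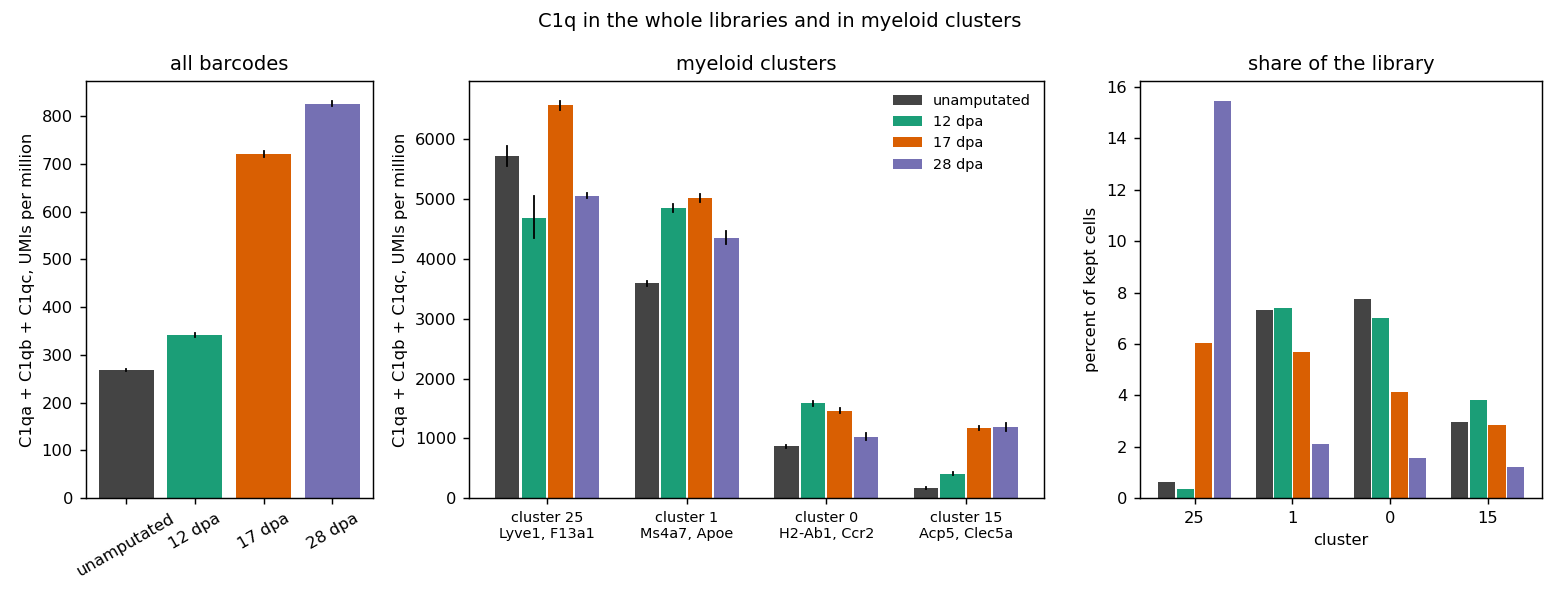
Left, C1q CPM over all barcodes of each library; middle, the same in 4 myeloid clusters; right, the share of kept cells in each of these clusters. Bars are libraries and lines exact 95% Poisson intervals. C1q over all barcodes was 268.2 in unamputated tissue and 826.1 at 28 dpa, cluster 25 was 0.633% and 15.5% of kept cells, and C1q within cluster 25 was 5723 and 5060.

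C1s1 and C1ra encode the proteases of the first component. Both were transcribed in connective tissue and mural cells, and in fibroblast-like cells both were lower at 12 dpa than in the other libraries. In fibroblast-like cells C1s1 had 155, 101.4, 187 and 116.6 CPM in the unamputated, 12, 17 and 28 dpa libraries. Relative to unamputated tissue this was 0.654-fold (0.592 to 0.722), 1.21-fold (1.15 to 1.27) and 0.752-fold (0.711 to 0.795). C1ra had 58.1, 35.2, 67.3 and 53.7 CPM there, or 0.606-fold (0.511 to 0.715), 1.16-fold (1.07 to 1.26) and 0.924-fold (0.847 to 1.01), and the interval at 28 dpa includes no difference. Both genes were lowest at 12 dpa and highest at 17 dpa. The class leaves out the unnamed cluster led by C1qtnf3, Fbn2 and Tnn. There C1s1 was 54.4 CPM in unamputated tissue and 53.2 at 12 dpa, and C1ra was 35.9 and 31.9 CPM. In pericyte-like cells, the mural cells of small vessels, both were also lowest at 12 dpa and highest at 17 dpa, and at 28 dpa the fold intervals of both included no difference from unamputated tissue, with 163.9, 78.6, 250.2 and 174.6 CPM of C1s1 and 35.8, 20.9, 47.3 and 39 CPM of C1ra. Tenocyte-like cells had 132.2, 54.6, 124.8 and 82.7 CPM of C1s1, and smooth muscle-like cells had 98.9, 68.5, 153.1 and 123.7. C1ra in smooth muscle-like cells was 13.4, 16, 27.4 and 20.9 CPM. The 12 dpa value there rests on 14 UMIs. Its interval (8.74 to 26.8 CPM) holds the unamputated level, so the order of these libraries is not settled. Osteoblast-like cells had 35, 51.3 and 56.7 CPM of C1s1 in the 3 libraries with at least 50 such cells. In keratinocyte-like cells C1s1 was 8.36 to 14.8 CPM and in macrophage-like cells 0.627 to 3.23 CPM.

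Cluster 10 had the most C1s1 of the fibroblast-like clusters in every library, with 212.9, 158.8, 246.5 and 254.6 CPM. Cluster 11 had 86.2, 96.4, 69.8 and 54.3 CPM, and cluster 24 had 134.5, 50.3, 219.1 and 145.8. At 28 dpa cluster 10 was above its unamputated level (1.20-fold, 1.12 to 1.28) and cluster 11 below its own (0.630-fold, 0.563 to 0.707). The lower C1s1 of the class at 28 dpa was seen beside 1309 cells of cluster 11 at 28 dpa against 227 in unamputated tissue. C1ra was 82.9, 50.1, 98.8 and 112 CPM in cluster 10 and 29.4 to 34.9 CPM in cluster 11. The mouse genome holds near-identical copies, C1rb and C1s2, and reads that fit both copies may be lost or split, so the levels of C1ra and C1s1 are uncertain to that extent. In fibroblast-like cells C1rb was counted at 35.9, 21.6, 19.3 and 20.1 CPM and C1s2 at 30.6, 15.6, 18.8 and 19.6 CPM.

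C4b, the mouse gene of complement C4, had its lowest level at 12 dpa and its highest at 28 dpa in fibroblast-like cells. It had 68.8, 16.9, 59.5 and 95.3 CPM in the unamputated, 12, 17 and 28 dpa libraries, which is 0.245-fold (0.193 to 0.307), 0.864-fold (0.796 to 0.939) and 1.38-fold (1.29 to 1.49). Cluster 10 held 918 of the 993 C4b UMIs of the class in unamputated tissue, 19 of 82 at 12 dpa, 1240 of 1372 at 17 dpa and 1922 of 2369 at 28 dpa. Its level was 129.2, 31.8, 104.4 and 284.9 CPM, so that the 28 dpa level was 2.21-fold (2.04 to 2.39) the unamputated one. The 12 dpa value of that cluster comes from 60 cells. Cluster 11 had 11.7, 14.8, 10.8 and 26.2 CPM, and cluster 24 had 6.23, 14.4, 13.6 and 13.5. Schwann-like cells, the glia of peripheral nerve, were the other main class, with 54.3, 35.3, 56.2 and 106.3 CPM, and they were lowest at 12 dpa and highest at 28 dpa as well. C4b at 28 dpa was 1.96-fold (1.52 to 2.51) its unamputated level in them. Keratinocyte-like cells had at most 0.673 CPM. The copy C4a was counted at 0.0693 to 0.411 CPM in fibroblast-like cells, so few reads were assigned to it.

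Macrophage-like cells had a low level of C4b, at 3.34, 0.658, 15.8 and 8.73 CPM. It was higher in cluster 25, with 26, 6.79, 25.4 and 9.28 CPM, the 12 dpa value being 1 UMI in 22 cells, than in cluster 1, with 1.36, 0.453, 4.27 and 4.45 CPM on 12, 2, 17 and 7 UMIs. The H2-Ab1 and Ccr2 cluster had 0.115, 0.284, 0.355 and 0.983 CPM, each on 1 UMI. These levels were below both macrophage-like clusters by CPM. At 12 dpa clusters 1 and 25 held only 2 and 1 UMIs, so the order is not settled there. At 17 and 28 dpa the log2 ratios were 1.95 and 1.16 in the whole class, 1.16 (3.13-fold, 1.41 to 7.18) and 1.21 (3.26-fold, 1.09 to 8.99) in cluster 1, and -0.03 and -1.39 in cluster 25.

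C3, whose cleavage joins all routes of activation, differed in direction between cell types at 28 dpa. Against unamputated tissue it was lower in macrophage-like and osteoclast-like cells, the H2-Ab1 and Ccr2 cluster and fibroblast-like clusters 11 and 24. In fibroblast-like cluster 10 it was higher. Macrophage-like cells had 53.5, 46.9, 22.2 and 7.48 CPM in the unamputated, 12, 17 and 28 dpa libraries. Relative to unamputated tissue these were 0.877-fold (0.745 to 1.03), 0.415-fold (0.350 to 0.490) and 0.140-fold (0.112 to 0.173). In log2 they were -0.19, -1.23 and -2.68, and the 28 dpa level was the lowest. Cluster 1 had 56.8, 48.5, 40.2 and 22.9 CPM, so that within it the 28 dpa level was 0.403-fold (0.279 to 0.565) the unamputated one. Cluster 25 had 15.6, 7.28 and 5.47 CPM on 12, 35 and 66 UMIs in the unamputated, 17 and 28 dpa libraries and no C3 UMI in its 22 cells at 12 dpa, where the upper bound is 25.05 CPM. The lower C3 of the class at 28 dpa was seen beside 1572 cells of cluster 25, the poorer in C3, and its log2 ratio of -2.68 was -1.28 in cluster 1 alone and -1.36 in cluster 25 alone. At resolution 2 the 28 dpa level was 0.636-fold (0.426 to 0.918) the unamputated one in the cluster led by Ms4a7 and Apoe, 0.130-fold (0.0631 to 0.282) in that led by F13a1 and Lyve1, and 1.27-fold (0.463 to 4.88) in that led by Fxyd2 and Cd36, which had 4 C3 UMIs in unamputated tissue. The cluster led by F13a1 and Lyve1 had 12 C3 UMIs there, in 4 of its 39 cells. The H2-Ab1 and Ccr2 cluster had 118.9, 114.7, 135.1 and 53.1 CPM of C3, or 0.446-fold (0.333 to 0.587) at 28 dpa. Osteoclast-like cells had 29.2, 27.5, 33.2 and 8.03 CPM, or 0.275-fold (0.12 to 0.54) at 28 dpa. Dendritic-like cells had 16.2, 9.39, 14.2 and 7.22 CPM on 54, 11, 15 and 4 UMIs. The 5 monocyte markers summed to 105.8, 54.8, 87.7 and 35.9 CPM and the 10 neutrophil markers to 143.7, 85.3, 93.8 and 28 CPM in macrophage-like cells, of which at most 3 neutrophil markers were at 0, and their part in the C3 difference was not tested. Neutrophil-like cells had 268.4 CPM of C3 in unamputated tissue (515 cells) and 341.9 CPM at 17 dpa (219 cells), and fewer than 50 such cells were kept at 12 and 28 dpa.

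In fibroblast-like cells C3 had 113, 37.9, 98.1 and 110.2 CPM, which was 0.335-fold (0.286 to 0.390), 0.868-fold (0.814 to 0.925) and 0.975-fold (0.917 to 1.04). The class as a whole was thus lower at 12 dpa and not distinguishable from the unamputated library at 28 dpa within counting error. Its clusters differed. Cluster 10 had 163.7, 71.9, 120.1 and 369.2 CPM, or 2.26-fold (2.10 to 2.42) at 28 dpa. Cluster 24 had 201, 194.5 and 72.9 CPM in the unamputated, 17 and 28 dpa libraries, and no C3 UMI in its 27 cells at 12 dpa. Cluster 11 had 15, 35.4, 6.59 and 5.83 CPM, with the 12 dpa library highest. Cluster 10 held 399, 60, 998 and 880 cells in the 4 libraries. In it the share of cells with a C3 UMI was 43.9%, 20%, 28.8% and 47.5%, or 20.9%, 10.5%, 13.9% and 34.0% after thinning, against at most 0.299% of thinned keratinocyte-like cells. The 10 macrophage markers summed to 130.3 to 256.7 CPM in cluster 10. The difference between the directions of C3 in macrophage-like cells and in cluster 10 was not tested.

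A finer division of cluster 24 showed where its C3 and Serping1 lay. At a clustering resolution of 2, one of its parts, again led by Fgl2 and Itih5, had 61, 186 and 97 cells in the unamputated, 17 and 28 dpa libraries and none at 12 dpa. It had 460.7, 406.3 and 209.8 CPM of C3, with a UMI in 86.9%, 76.9% and 56.7% of its cells. Its Serping1 was 1957, 2971 and 2034 CPM. Its C4b was 5.83 to 10.6 CPM, unlike cluster 10, where C3 and C4b were both high. Its best marker score was that of another class, so it is named here by its leading genes.

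**Figure D3:**
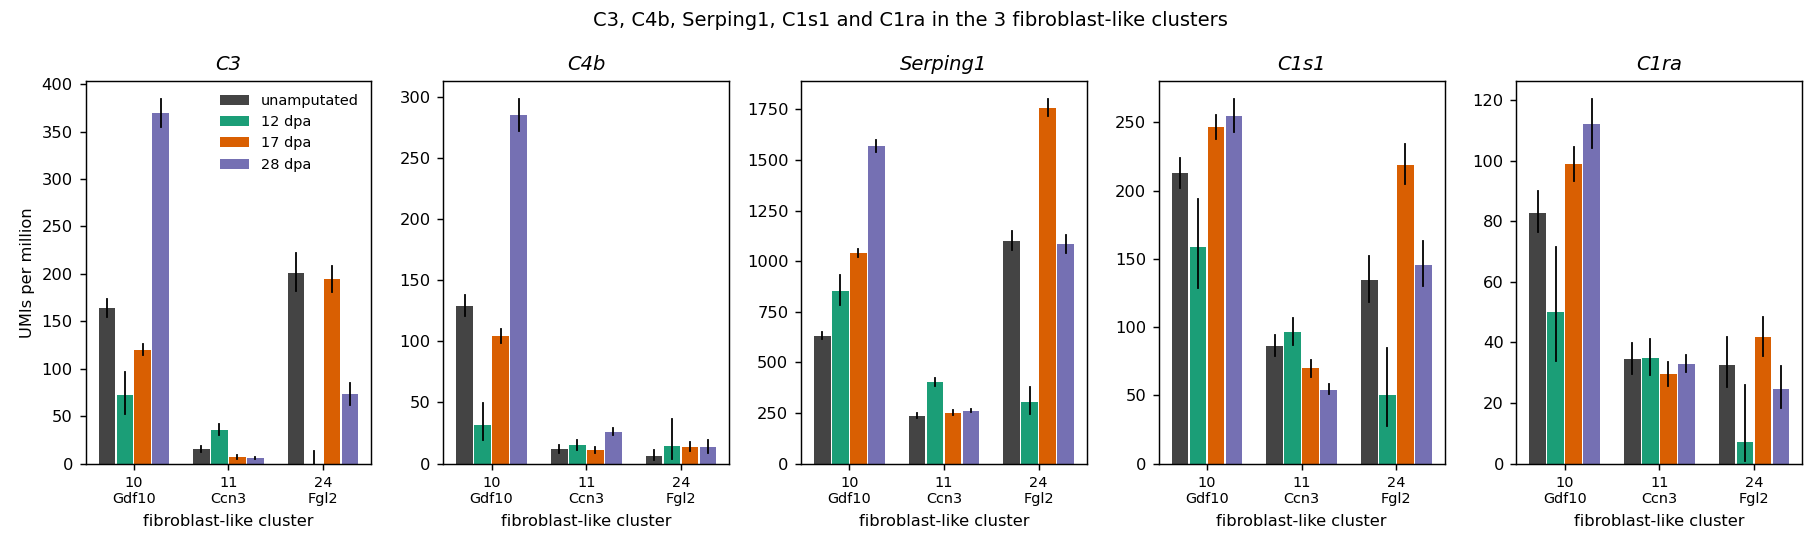
CPM of C3, C4b, Serping1, C1s1 and C1ra in fibroblast-like clusters 10, 11 and 24 (a leading gene is given under each); bars are libraries and lines exact 95% Poisson intervals. In cluster 10 the 28 dpa bars of C3 and C4b (369.2 and 284.9) stand above the unamputated ones (163.7 and 129.2), and the 12 dpa bars rest on 60 cells in cluster 10 and 27 in cluster 24.

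Cfd, the protease of the alternative route that is known as a product of fat cells, was nearly absent. Over all barcodes it had 1, 0, 2 and 2 UMIs in the unamputated, 12, 17 and 28 dpa libraries, of 197140774, 92313847, 95988993 and 106899985 UMIs. The upper 95% bounds were 0.0283, 0.04, 0.0753 and 0.0676 CPM. No fold is given for it, and it is left out of the medians below.

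Serping1, the gene of the C1 inhibitor that blocks C1r and C1s, was transcribed in the same classes as C1r and C1s and was highest at 17 dpa in the fibroblast-like class. It had 546.5, 453.4, 922.7 and 687.4 CPM in the unamputated, 12, 17 and 28 dpa libraries. These were 0.830-fold (0.791 to 0.870), 1.69-fold (1.65 to 1.73) and 1.26-fold (1.23 to 1.29). Pericyte-like cells had 547, 438.3, 717.6 and 669.6 CPM, with the same order. Smooth muscle-like cells had 460.7, 407.6, 539 and 430.7 CPM, and tenocyte-like cells 276.3, 162.8, 328.9 and 368.7. In all 4 of these classes the 12 dpa library was the lowest, although in fibroblast-like cells that library was 290 of 377 cells from cluster 11, against 227 of 753 in unamputated tissue. Outside these classes, the unnamed cluster led by C1qtnf3 had 112.2 CPM of Serping1 in unamputated tissue and 153.6 at 12 dpa. Over all barcodes Serping1 was 143.9, 120, 371.5 and 287 CPM, while fibroblast-like cells were 7.22%, 5.81%, 23.7% and 24.6% of kept cells. Cluster 10 had 631.8, 853.9, 1040 and 1568 CPM, so that it was above the unamputated library at all 3 times, by 0.43, 0.72 and 1.31 in log2. Cluster 24 had 1101, 305.5, 1759 and 1086 CPM, and cluster 11 had 236.4, 403.6, 252.2 and 261.7. Thinned to 2000 UMIs, 51.5%, 48.5%, 60.8% and 54.8% of fibroblast-like cells had a Serping1 UMI, against 0.272%, 0.494%, 1.35% and 2.02% of keratinocyte-like cells. The 1.32 to 8.51 CPM counted in macrophage-like cells was close to the 1.49 to 7.13 CPM of keratinocyte-like cells and is read as background.

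Over C1s1, C1ra, C3, C4b and Serping1 together, the median log2 ratios in fibroblast-like cells were -0.71, 0.21 and -0.04 at 12, 17 and 28 dpa, beside medians of -0.23, -0.04 and -0.14 over the 11018 genes tested there. The median at 28 dpa changed sign under several alternatives given in the closing section, so no direction is given for it. All 5 were below the unamputated library at 12 dpa in the class sum, of which cluster 11 was 290 of 377 cells at 12 dpa and 227 of 753 in unamputated tissue. Within clusters this was not so for all: at 12 dpa Serping1 was higher in clusters 10 (1.35-fold, 1.23 to 1.48) and 11 (1.71-fold, 1.59 to 1.84) and C3 in cluster 11 (2.36-fold, 1.78 to 3.14), while in cluster 11 the intervals of C1s1, C1ra and C4b included no difference. C1s1, C1ra, C3 and C4b were lower in cluster 10. The class leaves out the unnamed cluster led by C1qtnf3, Fbn2 and Tnn, which held 1544 cells at 12 dpa. There C1s1, C1ra and C4b were 53.2, 31.9 and 2.5 CPM at 12 dpa, against 54.4, 35.9 and 2.4 in unamputated tissue. Serping1 and C3 were 153.6 and 4.22 CPM, against 112.2 and 1.68. In the class sum at 28 dpa C4b and Serping1 were above the unamputated library and C1s1 below it. C1ra and C3 were below it by CPM (-0.11 and -0.04) but above it with median-of-ratios (0.06 and 0.14) or TMM factors (0.10 and 0.18), which shift all genes by 0.18 and 0.22, so no direction is given for them. Of the 9 members, 7 passed the minimum of 5 CPM in any library in macrophage-like cells, 8 in fibroblast-like cells and 8 in cluster 10. In macrophage-like cells at 28 dpa, 2 of 7 were at least 2-fold higher, C4b and, at background level, Serping1, and 1 was at least 2-fold lower, C3. Of all genes tested in these cells at 28 dpa 3.94% were 2-fold higher and 5.95% lower. In cluster 10, 1 of 8 was 2-fold higher and 3 lower at 12 dpa, where 5.93% of all genes tested were higher and 7.59% lower, and 2 were higher and 0 lower at 17 dpa, where 1.03% and 2.56% were. The 1 higher at 12 dpa (C1qb), 1 of the 3 lower (C1qc) and both higher at 17 dpa (C1qa and C1qb) were C1q chains at background level, so that C3 and C4b, lower at 12 dpa, were the other calls at these times. In the same cluster at 28 dpa, 6 of 8 were 2-fold higher, of which the 3 C1q chains were at background level, while 2.52% of all genes tested were higher and 5.65% lower. C3, C4b and Serping1 were the other 3, and C1s1 and C1ra had log2 ratios of 0.26 and 0.43.

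The members were set beside a list of 54 complement genes that holds them. In macrophage-like cells 25 of the 54 were tested. Of these 1, 4 and 6 were at least 2-fold higher at 12, 17 and 28 dpa, while 1.31%, 2.24% and 3.94% of all genes were, and 4, 2 and 3 were at least 2-fold lower, while 2.39%, 1.72% and 5.95% of all genes were. The 6 higher at 28 dpa include Serping1, which was at background level in these cells. The list's median log2 ratio was -0.21, 0.32 and 0.33, beside -0.21, 0.02 and -0.04 over all genes tested. Among lectin-route genes, Fcna, which encodes the lectin ficolin A, had 18.5, 14.9, 53.2 and 62.6 CPM, and Colec12, a scavenger receptor with a lectin domain, had 223.2, 170, 240.6 and 280 CPM. Cfp, the gene of properdin, which stabilises the alternative C3-cleaving enzyme, had 135.9, 166, 182.2 and 147.6 CPM. Among receptors, Itgam, the alpha chain of complement receptor 3, had 250.4, 153.5, 310.1 and 462 CPM. Vsig4, a macrophage receptor for C3 fragments, had 11.9, 1.54, 72.4 and 52.4 CPM, and Itgax, the alpha chain of complement receptor 4, had 30.4, 30.7, 13.4 and 10.2. Cr1l, a membrane regulator, had 78.1, 62.7, 97.6 and 106 CPM. No terminal component reached 5 CPM.

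Several of these differences had another size or sign inside the macrophage-like clusters. Cfp at 28 dpa was below the unamputated library in both, with 129.5, 165.9, 129.5 and 83.9 CPM in cluster 1 and 208.9, 169.8, 225.8 and 155.9 in cluster 25. Colec12 was 576, 190.1, 286.1 and 283 CPM in cluster 25, highest in unamputated tissue, and 192.3, 169.3, 185.7 and 257.4 in cluster 1, highest at 28 dpa. Vsig4 was 115.5 CPM in the unamputated library, 112.7 at 17 dpa and 58.2 at 28 dpa in cluster 25, with no UMI in 22 cells at 12 dpa. In cluster 1 it was 2.84, 1.59, 23.8 and 7.63 CPM. Itgax was a transcript of cluster 1, where it was 32.7, 31.7, 28.9 and 86.4 CPM and thus highest at 28 dpa, against 0.249 to 3.89 CPM in the libraries of cluster 25 with any UMI. Fcna was 49.3, 61.1, 73.4 and 67.6 CPM in cluster 25 and 15.8, 13.4, 28.9 and 24.8 in cluster 1.

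In fibroblast-like cells 24 of the 54 genes were tested. Of these 1, 4 and 5 were at least 2-fold higher at 12, 17 and 28 dpa, while 1.66%, 0.690% and 2.10% of all genes were, and the 1 at 12 dpa (C1qb) and 3 of those at 17 and at 28 dpa were C1q chains at background level. At least 2-fold lower were 6, 0 and 1, while 7.35%, 1.25% and 6.18% of all genes were. The list's median log2 ratio was -0.61, 0.01 and 0.11. Those lower at 12 dpa included C3, C4b, C7, Clu and Csmd1. Csmd1, a membrane protein with complement control domains, had 300.4, 95.9, 250.5 and 120.4 CPM in the class. Within clusters, whose mix differed between libraries, Csmd1 had 373, 265.7, 233.3 and 292 CPM in cluster 10 and 793.5, 478, 690.7 and 265.7 CPM in cluster 24. In cluster 11 it had 28.9, 43.7, 28.6 and 28.3 CPM, so that there the 12 dpa level was the highest. C7, a part of the membrane attack complex and the only terminal component tested, had 11.9, 0.411, 21.2 and 26.1 CPM, and it was highest in cluster 10 in all libraries but that of 12 dpa, at 23.5, 1.67, 40.8 and 91.6 CPM. C7 thus shared the highest level at 28 dpa in that cluster with C1s1, C1ra, C3, C4b and Serping1, and with Cfb, the gene of factor B. Colec10, the gene of a soluble collectin, had 2.91, 6.38, 7.68 and 25.4 CPM. Cd55, which speeds the decay of C3-cleaving enzymes on the cell surface, had 311.3, 325.7, 243 and 416.6 CPM. Colec12 had 331.5, 178.8, 325.9 and 209.1 CPM. No gene listed in the role of complement receptor reached 5 CPM. FVB/NJ mice are known to carry a loss-of-function allele of Hc, the gene of C5, for which all kept cells together had 48, 39, 39 and 25 UMIs.

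**Figure D4:**
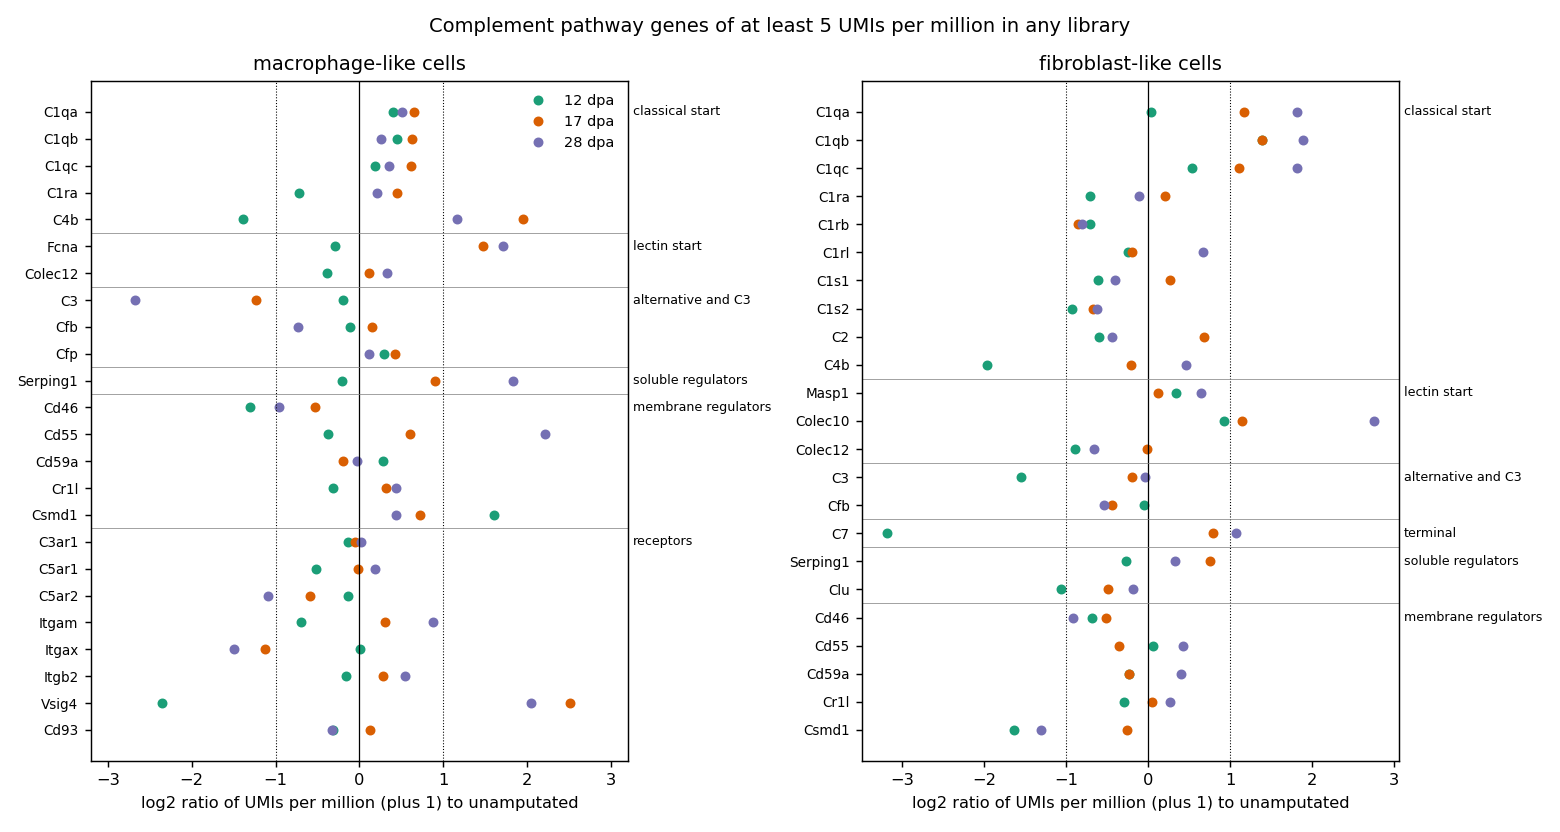
Log2 ratio to the unamputated library (horizontal axis, on CPM plus 1) of listed complement genes with at least 5 CPM in any library, in macrophage-like and fibroblast-like cells; points are the 12, 17 and 28 dpa libraries and dotted lines mark 2-fold. C3 lies at -2.68 in macrophage-like cells at 28 dpa, and C3 and C4b at -1.55 and -1.97 in fibroblast-like cells at 12 dpa.

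Genes outside the list with the most similar pattern were taken by Pearson correlation of log2 levels over the same 44 sums, among 8078 genes. For C1q they were Lyz2 (r 0.966), Mrc1, Cd33, Cd68 and Trem2 (r 0.949). For C1s1 they were C1qtnf7 (0.954), Prrx1, Tbx18, Fhl1 and Tbx15, and for C1ra Scara3 (0.928), Twist1, Bmp5, Ddr2 and Hoxd11. For Serping1 they were Igfbp5 (0.956), Cygb, Ddr2, Mgp and Cd248. For C4b they were Abca8a (0.907), Abca8b, Fez1, Entpd2 and Negr1. For C3 the likeness was weaker, with Pdpn (0.842), Fam102b, Mmp19, Emilin2 and Htra3.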

How the data were processed

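Single-cell 3' libraries (10x v3) were sequenced for 4 samples, 1 per group. The files hold UMI counts per gene and barcode, deposited by the authors without normalization; per the file headers and the submitters' processing notes they were made with Cell Ranger 7.1.0, with mm10 as the genome build. Library totals were 92313847 to 197140774 UMIs. Further steps of the authors are not given in the sources used here.

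Barcodes under 500 genes or 1000 UMIs, or above 10% mitochondrial UMIs, were dropped, and those with the highest Scrublet scores (0.8% per 1000 barcodes) were removed as doublets (7.05% to 12.8% of barcodes). Cells were scaled to 10000 UMIs, and 2000 variable genes, 30 principal components and 15 neighbours entered Leiden clustering at resolution 1 (scanpy 1.11.5), without complement genes. A cluster was named from 23 marker lists when at least 3 of a class's markers were detected in at least 25% of its cells and its 10 leading genes did not go against the name; this rule was written after the clusters were seen. Ccl21a, a symbol with more than 1 entry, was left out of the lymphatic markers. Counts were summed per class or cluster and library, and given as CPM with exact Poisson intervals. A gene was compared at 5 CPM or more in any library and called at 2-fold with a pseudocount of 1 CPM. Shares were also taken after thinning each cell to 2000 UMIs. Since each group holds 1 library, no test was run. Levels of different genes were not compared, except the share of each chain in the C1q UMIs, which is not scaled to length. TMM factors, an alternative scaling, came from edgeR 4.0.16 on the summed deposited counts. Log2 ratios were tested on simulated data with known folds, and the interval functions were checked only on single fixed counts.

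The 9 genes, the pathway list and the questions were chosen with earlier results of these data known. Beyond the members, genes are named when past 2-fold with at least 20 CPM in the higher library, or highest of their role in a class; those of like pattern are the 5 with the highest correlation among genes of at least 50 CPM in any sum. Clu, C2, Cfb, Hc and the finer part of cluster 24 were named after their values were seen. One listed gene is counted in the list but is not reported here. The median over the members outside C1q was planned over 6 genes, and Cfd was left out because it had 3 or fewer UMIs in each library of the fibroblast-like class.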

Additional observations from a re-analysis of the deposited data

Results flagged for a closer look

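C3 at 28 dpa was below the unamputated library in macrophage-like cells (log2 ratio -2.68) and above it in the fibroblast-like cluster led by Lsamp, Gdf10 and Pi16 (log2 ratio 1.17). Each value compares 1 library with 1 library, and the difference between the cell types was not tested.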

How the results depend on the processing

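No paired analysis was possible because each group holds 1 library, and leaving out a replicate was not possible for the same reason. Counting error is small beside what 1 library per group leaves unknown, and classes rest on rebuilt names.

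The log2 ratio of the C1q sum in macrophage-like cells was 0.37 at 12 dpa. It was 0.52 with median-of-ratios factors, 0.53 with TMM factors, 0.41 without mitochondrial and ribosomal genes, 0.50 under the stricter cell filter, 0.41 with no doublets removed and 0.03 with clusters weighted alike. At 17 dpa (0.64) it was 0.31 with clusters weighted alike, 0.67 in thinned cells, 0.96 and 0.68 under the looser and stricter cell filters, 0.97 with no doublets removed, 1.01 and 0.54 at resolutions 0.5 and 2, and 0.76 with each cell named alone. At 28 dpa (0.40) it was 0.46 and 0.49 under the 2 other scalings, 0.02 with clusters weighted alike, 1.02 and 0.35 under the looser and stricter filters, 0.90 with no doublets removed, 1.13 and 0.29 at resolutions 0.5 and 2, and 0.69 with each cell named alone. Alternatives chosen after seeing the data gave, at 12, 17 and 28 dpa, 0.52, 1.01 and 0.98 when every cluster took its best class, 0.43, 0.48 and 0.28 in cluster 1 alone, and -0.29, 0.20 and -0.18 in cluster 25 alone, where 12 and 28 dpa reversed. C4b in macrophage-like cells reversed to -0.03 at 17 dpa and -1.39 at 28 dpa in cluster 25 alone, and to -0.90 at 28 dpa with clusters weighted alike, but was 1.16 and 1.21 in cluster 1 alone. C3 in macrophage-like cells at 28 dpa (-2.68) was below 0 in all 17 alternatives, from -3.15 in thinned cells to -1.28 in cluster 1 alone, with -1.36 in cluster 25 alone, -1.29 with clusters weighted alike and -1.86 with a pseudocount of 10 CPM. The cause was not tested beyond the mix of clusters.

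The fibroblast-like median was -0.48 at 12 dpa with TMM factors (-0.71 as reported). At 17 dpa (0.21) it was 0.07 in thinned cells, 0.39 with no doublets removed and 0.36 under the looser filter. At 28 dpa (-0.04) it was 0.14 and 0.18 under the 2 other scalings, 0.26 as a mean over cells, 0.24 with clusters weighted alike, 0.11 in thinned cells, 0.23 under the looser filter, 0.78 with each cell named alone and, chosen after seeing the data, 1.13 in cluster 10 alone. Keeping Cfd at a ratio of 0, also chosen after seeing the data, gave -0.66, 0.10 and -0.02 at 12, 17 and 28 dpa. The other scalings shifted all genes by up to 0.24 (fibroblast-like) and 0.16 (macrophage-like) in log2 at 12 dpa and by 0.22 in fibroblast-like cells at 28 dpa.

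With no minimum on low values, listed genes 2-fold higher in macrophage-like cells at 12 dpa were 2 (1 as reported), their medians at 17 and 28 dpa were 0.15 and 0.20 (0.32 and 0.33), and in fibroblast-like cells the 12 dpa median was -0.25 (-0.61) and 2 were lower at 28 dpa (1). With a minimum of 20 CPM, macrophage-like counts were 0 higher and 2 lower at 12 dpa (1 and 4) and 3 higher at 28 dpa (6). Fibroblast-like counts were then 0, 1 and 2 higher at 12, 17 and 28 dpa (1, 4 and 5), and the median at 28 dpa was -0.07 (0.11).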

Other observations

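C3 was also found in the unnamed cluster led by Ccrl2, Il1b and Cxcl2, whose cells were shallow, with a median of 1982 UMIs. It had 87.9, 166.2, 172.3 and 51.5 CPM in the unamputated, 12, 17 and 28 dpa libraries, on 122, 87, 92 and 14 UMIs. The unnamed cluster led by C1qtnf3, Fbn2 and Tnn, which was 23.8% of kept cells at 12 dpa and 0.619% at 28 dpa, held 53.6% of the C1s1 UMIs, 64.7% of the C1ra UMIs and 43.0% of the Serping1 UMIs of the kept cells of the 12 dpa library. Its C1s1 was 54.4, 53.2, 60.3 and 112.4 CPM and its Serping1 was 112.2, 153.6, 127.8 and 261.1 CPM in the 4 libraries in the same order. C2, which C1s cleaves, was highest in cluster 24 of the fibroblast-like cells at 17 dpa, with 174, 39.5, 292.1 and 233.6 CPM. Cfb, the gene of factor B, was 90.2, 81.9, 68.3 and 106.9 CPM in cluster 10.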
